A study of Homo sapiens with 25 samples.

Results

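The major histone gene cluster on the short arm of human chromosome 6 was described here across 4 stages of endoderm differentiation. Its members were all protein-coding genes between 25.7 and 28.0 Mb of chromosome 6 (GRCh38) whose symbol begins with H1-, H2AC, H2BC, H3C or H4C. The choice used names and positions only, and gave 55 of the 20037 protein-coding genes of the annotation. They comprised 6 H1, 12 H2A, 15 H2B, 10 H3 and 12 H4 genes. The first ended at chr6:25726063 on its left side and the last at chr6:27893891 on its right side. The same symbol rule found 19 histone genes elsewhere in the genome, and 22 other protein-coding genes lay in the same window.

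All stages come from H1, an established line of human embryonic stem cells, assayed undifferentiated (hESC) and after it had been led to definitive endoderm (hDE), then to endoderm of the anterior foregut (hAFE) and then to endoderm of the pharyngeal foregut (hPFE). The labels give no genetic change and name no agent or time for the groups. Chromatin immunoprecipitation with sequencing was done for H3K27ac, H3K4me2 and H3K27me3, giving 21 libraries with a peak list among 25 samples, of which the remaining 4 are inputs. There were 2 libraries of each mark at a stage, but a single one for H3K4me2 at hAFE and hPFE and for H3K27me3 at hAFE.

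Nucleosomes are built from pairs of H2A, H2B, H3 and H4, and an H1 linker histone binds the DNA that enters and leaves them. The genes of this cluster are mostly replication-dependent. They are short, their transcripts end in a stem-loop in place of a poly(A) tail, and they are transcribed in S phase, when new DNA is packaged. Many H2A and H2B genes stand head to head and share the stretch between their starts. Most histone proteins are encoded by several near-identical copies, and the cluster also holds germline members (H2AC1 and H2BC1, the testis forms of H2A and H2B, and H1-6, the testis linker histone H1t). The H3 genes encode the protein on which all of the assayed marks sit. H3K27ac marks active promoters and enhancers, H3K4me2 active or accessible ones, and H3K27me3 regions held silent by Polycomb.

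The stretches of 200 bases before the start of 9 members are shown because they span the pattern described below. The first 3 belong to members with no H3K27ac or H3K4me2 peak, or with 1 in all, the fourth to the member that changed in both active marks, and the rest to a member of each family with a peak in all 14 libraries of the active marks. They are RefSeq sequences (GRCh38.p14), written 5′ to 3′ on the strand of the gene. Capitals mark 5 short motifs known from histone promoters, searched on both strands, so that a motif on the other strand stands as its reverse complement: the octamer is ATTTGCAT, the TATA box was searched as TATAAA, the CCAAT box by the letters of its name, the H4 element as GGTCCG and the H1 box as AAACACA. The first sequence also holds, on its other strand, nearly all of the stretch before H2BC1, whose start lies 215 bp from that of H2AC1.
H2AC1 (chr6:25726563-25726762, minus strand): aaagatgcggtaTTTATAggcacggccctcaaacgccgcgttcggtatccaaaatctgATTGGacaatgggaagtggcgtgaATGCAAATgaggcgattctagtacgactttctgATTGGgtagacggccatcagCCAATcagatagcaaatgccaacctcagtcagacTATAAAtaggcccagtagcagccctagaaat
H1-6 (chr6:26108136-26108335, minus strand): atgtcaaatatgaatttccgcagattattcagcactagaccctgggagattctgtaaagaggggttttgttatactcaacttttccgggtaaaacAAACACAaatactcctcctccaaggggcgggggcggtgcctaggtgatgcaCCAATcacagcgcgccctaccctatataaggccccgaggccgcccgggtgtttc
H4C7 (chr6:26246997-26247196, minus strand): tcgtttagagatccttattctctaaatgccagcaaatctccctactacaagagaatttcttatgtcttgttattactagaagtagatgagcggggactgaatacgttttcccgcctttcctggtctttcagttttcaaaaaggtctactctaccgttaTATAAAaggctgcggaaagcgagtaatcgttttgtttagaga
H1-1 (chr6:26017788-26017987, minus strand): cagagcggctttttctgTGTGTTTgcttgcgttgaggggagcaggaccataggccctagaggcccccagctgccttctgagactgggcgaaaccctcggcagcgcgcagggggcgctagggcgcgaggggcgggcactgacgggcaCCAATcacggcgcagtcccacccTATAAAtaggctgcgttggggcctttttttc
H1-2 (chr6:26056471-26056670, minus strand): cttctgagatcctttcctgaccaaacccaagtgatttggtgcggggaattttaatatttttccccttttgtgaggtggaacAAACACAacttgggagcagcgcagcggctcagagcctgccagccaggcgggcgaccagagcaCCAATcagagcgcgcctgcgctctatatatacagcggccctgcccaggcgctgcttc
H2AC4 (chr6:26033619-26033818, minus strand): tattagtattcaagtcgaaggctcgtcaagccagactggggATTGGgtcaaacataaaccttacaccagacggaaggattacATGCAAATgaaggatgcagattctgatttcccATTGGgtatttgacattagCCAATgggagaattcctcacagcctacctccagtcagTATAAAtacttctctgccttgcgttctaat
H2BC4 (chr6:26123927-26124126, minus strand): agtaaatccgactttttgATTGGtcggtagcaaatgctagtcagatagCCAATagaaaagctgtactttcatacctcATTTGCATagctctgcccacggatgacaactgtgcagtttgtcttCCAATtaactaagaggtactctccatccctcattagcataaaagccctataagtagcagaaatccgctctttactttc
H3C1 (chr6:26020251-26020450, plus strand): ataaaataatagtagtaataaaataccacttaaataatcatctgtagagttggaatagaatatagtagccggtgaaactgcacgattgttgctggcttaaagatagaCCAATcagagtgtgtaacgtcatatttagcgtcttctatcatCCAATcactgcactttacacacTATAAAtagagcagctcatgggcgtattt
H4C2 (chr6:26027284-26027483, minus strand): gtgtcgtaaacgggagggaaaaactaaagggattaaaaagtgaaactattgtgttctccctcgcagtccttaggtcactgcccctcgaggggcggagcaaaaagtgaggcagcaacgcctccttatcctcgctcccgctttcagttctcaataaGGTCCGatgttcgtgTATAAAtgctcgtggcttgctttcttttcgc

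The upstream motifs followed the families. RefSeq promoters were matched for 50 members (H4C1, H4C3, H2AC12, H3C11 and H3C12 had no entry), and the same search over 35116 promoters of all genes gives the background. The octamer, the site of POU factors such as POU2F1, was found before 12 of 15 H2B genes, 6 of 11 H2A genes and 1 of 8 H3 genes, and before no H1 or H4 gene, against 1.31% of all promoters. The H1 box stood before all 6 H1 genes and no other member, against 3.76% of all promoters. The H4 element stood before 9 of 10 H4 genes and 1 of 8 H3 genes, against 7.71% of all promoters, and H4C7 was the H4 gene without it. The CCAAT box was found before 43 of 50 members, namely all matched H1, H2A, H2B and H3 genes and 3 of 10 H4 genes, against 28.0% of all promoters, and the TATA box before 29 of 50, against 8.59%. Neighbouring motifs can overlap by a few letters, and each was counted on its own. The H3 gene with the octamer, H3C4, has the same listed start as H2AC7, so the same 200 bases were counted for both. Head-to-head genes share much of their upstream stretch, so 1 site can count for both, and the family counts are not independent. A match is a run of letters and not a bound site, and a missing match says only that these letters are not in these 200 bases.

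Marked genes of a stage were those with at least 1 bp of a peak within 1 kb of either annotated end in each of its libraries, unmarked genes those with a peak in none, and the rest were mixed. By this rule nearly the whole cluster carried both active marks at every stage and none of it carried H3K27me3. Of the 55 members, 47 had a peak of both H3K27ac and H3K4me2 in all 14 libraries, 5 in some (H1-1, H2BC3, H3C3, H4C6 and H4C7) and 3 in none (H2AC1, H2BC1 and H1-6). For H3K27ac, 51 members were marked in hESC against 42.9% of all genes, 49 in hDE against 54.0%, 47 in hAFE against 34.2% and 48 in hPFE against 50.2%. As shares of the 55 these are 92.7, 89.1, 85.5 and 87.3%. The order of the member counts was thus not that of the background, which was highest in hDE. For H3K4me2, 51 members were marked in hESC against 72.3% of all genes, 49 in hDE against 68.0%, 50 in hAFE against 70.2% and 50 in hPFE against 70.1%. In H3K27me3, 0 members were marked at each stage, against 19.2, 13.4, 15.5 and 12.7% of all genes from hESC to hPFE.

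**Figure D1:**
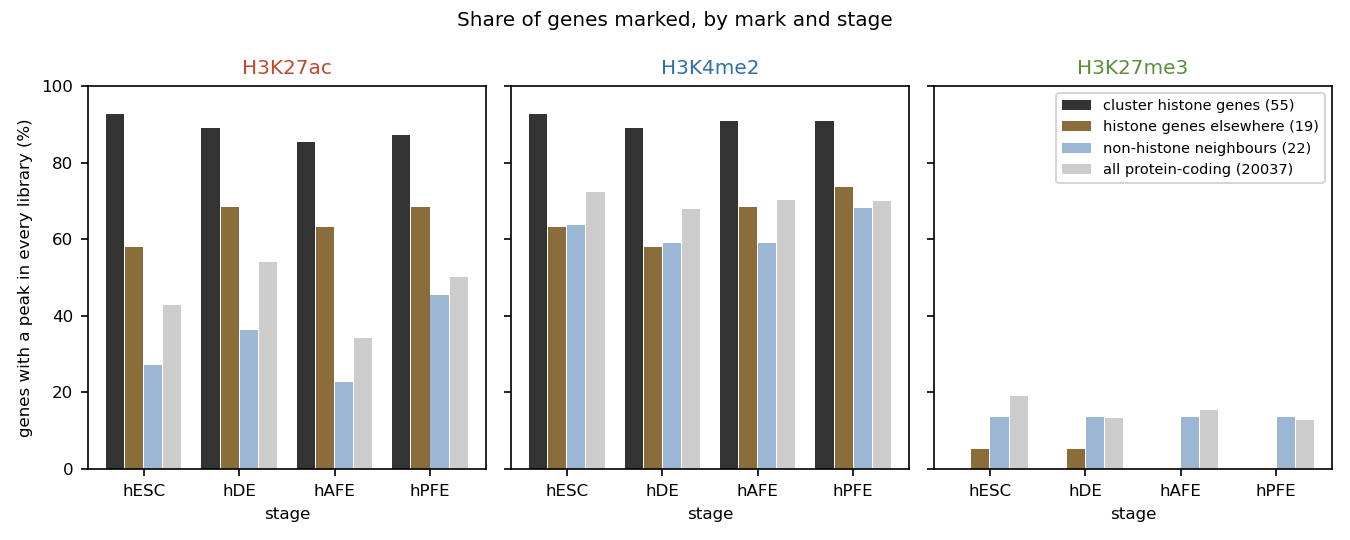
Bars give the share of genes (%, vertical axis) with a peak at a gene end in every library of the stage, by stage (horizontal axis) and mark (panel). The 55 cluster histone genes (black) stand at 85.5 to 92.7% for H3K27ac and have no bar for H3K27me3, where all protein-coding genes (light grey) reach 12.7 to 19.2%.

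These counts rest on 1 or 2 libraries a stage, and no test was made: an exact permutation of 2 libraries against 2 cannot give a two-sided p below 0.333. Whether replicates came from separate cultures is not in the labels. Per the labels, the hESC libraries of H3K27ac and H3K27me3 are re-analysed from an earlier deposit, so batch and stage cannot be told apart in any difference from hESC in these marks. In bulk chromatin, a mark in fewer cells and less of it in each cell cannot be told apart. The lists held 24871 to 111256 peaks for H3K27ac (the hAFE lists, with 42100 and 24871, were the shortest), 87357 to 116210 for H3K4me2 and 23457 to 76441 for H3K27me3. Read counts were not used, so depth is unknown and a missing peak does not show a missing mark. As a check of the labels, H3K27ac marked 5 of 5 stem cell markers in hESC, 5 of 5 endoderm markers in hDE, 4 of 5 foregut markers in hAFE and 3 of 5 pharyngeal markers in hPFE (FOXE1, SHH and ISL1, but neither PAX9, mixed, nor TBX1, unmarked). Of the markers of other cell types, 0 of 2 neural genes were marked at any stage, while 1 of 3 mesoderm genes (TBX6) was marked in hESC, hDE and hPFE, and 1 of 3 blood and endothelium genes (KDR) in hESC and hDE. Their part in the results was not tested.

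Both comparison sets had smaller shares marked by H3K27ac than the members. Of the 19 histone genes elsewhere, H3K27ac marked 11, 13, 12 and 13 from hESC to hPFE, below the members' share at each stage. Of the 22 non-histone neighbours it marked 6, 8, 5 and 10 in the same order of stages, which lies below the share of all genes. In single libraries, 47 to 52 members had an H3K27ac peak, against 5 to 10 neighbours and 34.7 to 58.5% of all protein-coding genes. The neighbours BTN1A1, a butyrophilin, POM121L2 and LOC105375107 carried H3K27me3 at all 4 stages, so peaks of this mark were called in the window, while at the members there was 1 such peak in 1 of 7 libraries.

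**Figure D2:**
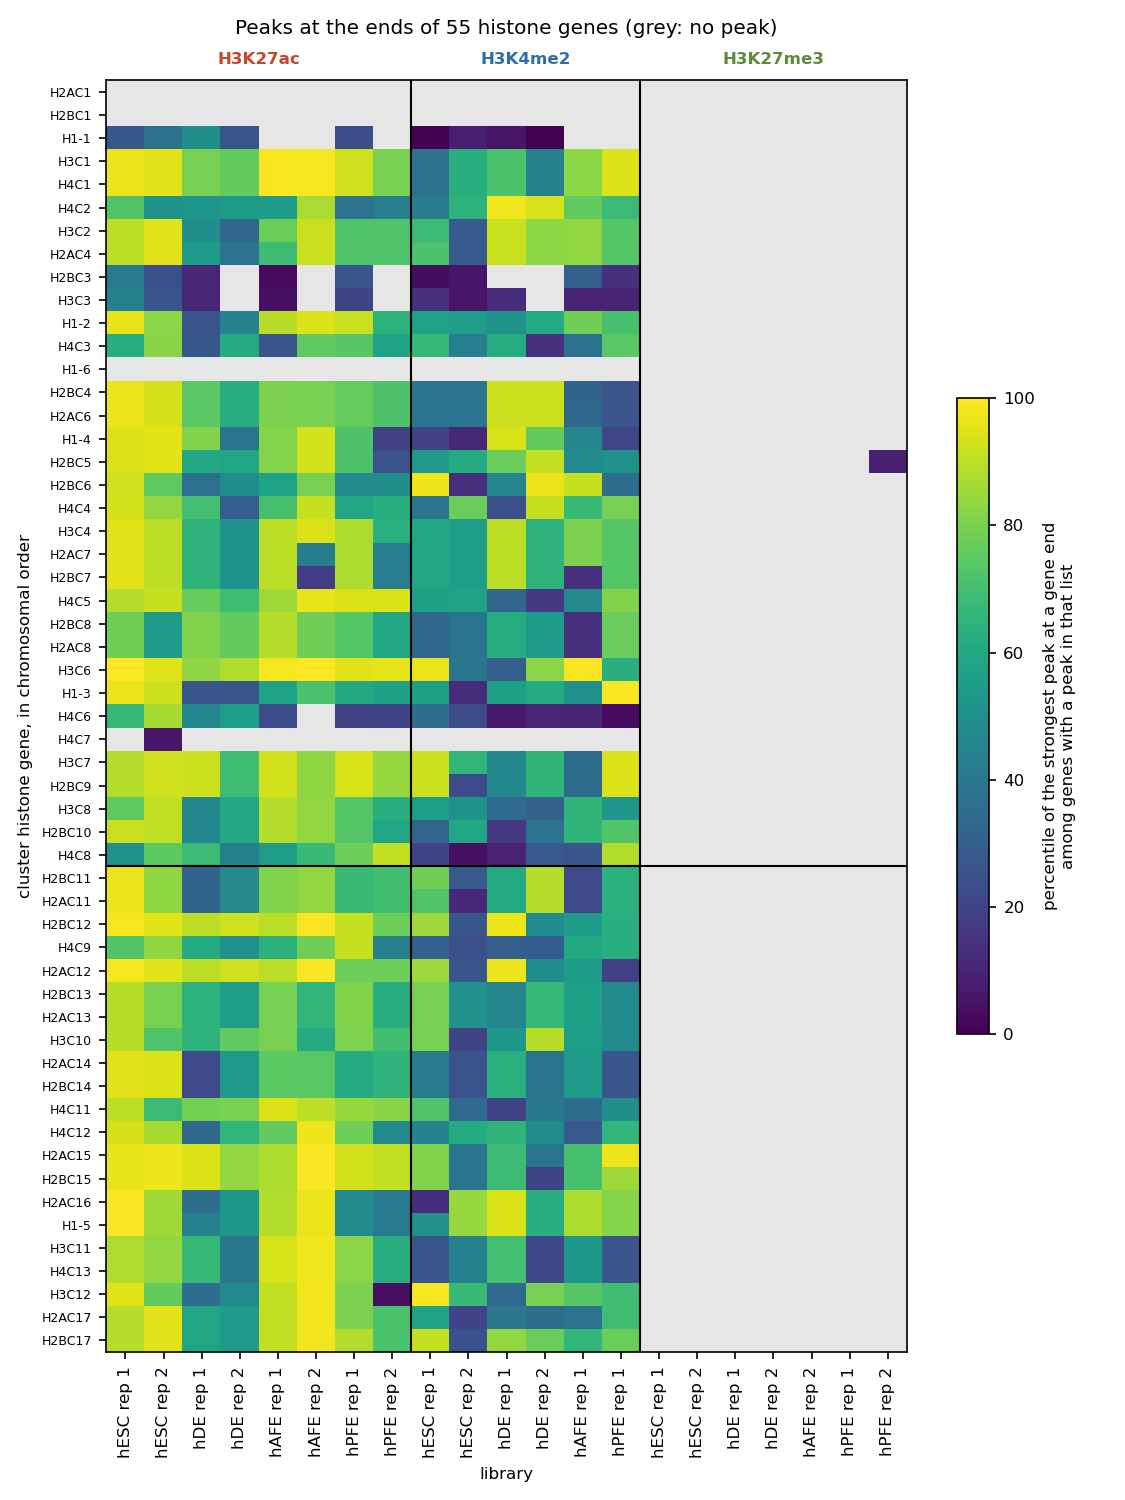
Each row is a member in chromosomal order, each column a library, and the colour gives the percentile (0 to 100) of the fold enrichment of the gene's strongest peak among all genes with a peak in that list, with grey for no peak. The rows of H2AC1, H2BC1 and H1-6 are grey throughout, the H3K27me3 columns hold 1 coloured cell (H2BC5 in hPFE replicate 2), and the horizontal line divides the 34 left from the 21 right members.

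By family, the H2A genes varied least. All 11 H2A genes other than H2AC1 had both active marks in all 14 libraries. Among H2B genes it was 13 of 15, the exceptions being H2BC1 and H2BC3, and among H3 genes 9 of 10, the exception being H3C3. Of the H4 genes 10 of 12 had both marks throughout (not H4C6 or H4C7), and of the H1 genes 4 of 6, namely H1-2, H1-3, H1-4 and H1-5. The widest gap between members, 847 kb between H4C8 and H2BC11, divides the cluster. The 21 members right of it all had both marks in all 14 libraries, while left of it 26 of 34 did. All 8 members without full marking therefore lie in the left part, and 3 of them (H1-1, H2BC3 and H3C3) stand within one stretch that also holds fully marked genes.

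The germline members had no peak of any mark in any of the 21 libraries. H2AC1 (chr6:25726063-25726562) and H2BC1 (chr6:25726777-25727345) stand apart from the rest, 290 kb to the left of H1-1. The nearest H3K27ac peak was 6.3 to 236 kb from H2AC1 over the 8 libraries, with a median of 58.8 kb. H1-6 (chr6:26107412-26108135) lies among marked genes, and its nearest H3K27ac peak was 1.71 to 2.88 kb away. Both H2AC1 and H2BC1 carry the octamer, the TATA box and the CCAAT box before their starts, and H1-6 the H1 box and the CCAAT box, so the members without peaks share these letters with marked members of their families. H3K27me3 was not found at them either, its nearest peak lying 4.63 to 72.2 kb from H2AC1 and 1.14 to 243 kb from H1-6.

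H4C7, a divergent H4 gene, had 1 peak in the 14 libraries. It lay in hESC H3K27ac replicate 2, was 197 bp wide (chr6:26246457-26246653), and had a deposited fold enrichment of 2.88, which put it at percentile 5.94 of that list. In the 6 H3K4me2 libraries the nearest peak was 2.23 to 2.46 kb away.

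H1-1, a linker histone gene at the left edge of the main run (chr6:26017032-26017787), was the 1 member lost in both active marks. Its strongest H3K27ac peak had a deposited fold enrichment of 3.89 and 4.32 in hESC replicates 1 and 2, and of 6.74 and 5.22 in hDE, no peak in either hAFE library, and 4.42 in hPFE replicate 1 with no peak in replicate 2. For H3K4me2 the values were 2.38 and 4.9 in hESC and 3.4 and 2.3 in hDE, with no peak in the single hAFE and hPFE libraries. Thus all 4 libraries of each mark in hESC and hDE had a peak, and of the 6 later libraries of both marks 1 did. These peaks were weak within their lists, at a median percentile of 27.6 for H3K27ac and 2.78 for H3K4me2. The H1-1 loss of both marks in hAFE relative to hDE was no longer called when all lists of a mark were shortened to the length of its shortest list, and that of H3K4me2 also ended with an overlap of 200 bp or a −log10 p of at least 5. H3C1 and H4C1, the next members to its right, had both marks throughout.

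H2BC3 and H3C3 lie 1671 bp apart (chr6:26043227-26043713 and chr6:26045384-26045869). At H2BC3 the strongest H3K27ac peak had a fold enrichment of 4.52 and 3.74 in hESC, 3.59 in hDE replicate 1, 3.01 in hAFE replicate 1 and 4.7 in hPFE replicate 1, with no peak in replicate 2 of hDE, hAFE or hPFE. H3C3 had H3K27ac peaks in the same 5 libraries, with 4.66 and 3.85 in hESC, 3.59 in hDE (the peak also counted for H2BC3), 3.27 in hAFE, and 4.19 at the hPFE stage. Each pair of replicates after hESC was thus split between a weak peak in replicate 1 and none in replicate 2. In H3K4me2, H2BC3 had a fold enrichment of 3.44 and 4.41 in hESC, no peak in hDE, 4.7 in hAFE and, at the hPFE stage, 4.37. H3C3 had 5.04 and 4.41 in hESC, 4.05 in hDE replicate 1 with none in replicate 2, 3.55 in hAFE and 3.85 in hPFE. Both genes ranked among the 3 lowest members with a peak, at median percentiles of 24.4 and 20.1 for H3K27ac and of 9.82 and 9.62 for H3K4me2.

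H4C6 (chr6:26240393-26240793) lacked a peak only in hAFE H3K27ac replicate 2, the shortest list of that mark. Its fold enrichment was 5.88 and 7.19 in hESC, 6.44 and 8.28 in hDE, 4.47 in hAFE replicate 1, and 4.19 and 3.64 in hPFE.

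The 1 member with an H3K27me3 peak was H2BC5, in hPFE replicate 2. That peak was 130 bp wide (chr6:26170744-26170873), with a fold enrichment of 2.68 at percentile 9.17 of its list, and there was none in hPFE replicate 1, hESC, hDE or hAFE. It lies near the right end of the H2BC5 annotation, which runs over 13229 bp (chr6:26158121-26171349) where the median member spans 489 bp. Across the 7 H3K27me3 libraries the median member lay 33.7 to 191 kb from the nearest peak of that mark.

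Few members changed between consecutive stages. Only 3 to 5 members could be gained in H3K27ac or H3K4me2. Among losses of these marks, only that of H3K27ac in hAFE stood against a background above 5.10%. For H3K27ac, 0 of 3 members that were unmarked in hESC were gained in hDE, against 14.6% of all genes, and 0 of 51 were lost, against 2.76%. In hAFE relative to hDE, 0 of 4 were gained, against 1.16%, and 1 of 49 was lost (H1-1), against 12.5%. In hPFE relative to hAFE, 0 of 5 were gained, against 7.71%, and 0 of 47 were lost, against 0.539%. With all H3K27ac lists cut to the length of the shortest, 3 members were lost in hDE, and 1 was gained and 0 were lost in hAFE, so these counts depend on list length. The share of all genes under the cut lists is not given, so these 3 counts cannot be set against a background.

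For H3K4me2, 0 of 4 members were gained in hDE relative to hESC, against 1.87%, and 1 of 51 was lost (H2BC3), against 2.82%. In hAFE relative to hDE, 1 of 5 was gained (H2BC3), against 8.11%, and 1 of 49 was lost (H1-1), against 3.23%. In hPFE relative to hAFE, 0 of 5 were gained, against 11.7%, and 0 of 50 were lost, against 5.10%. The losses of H3K4me2 in hDE and hAFE are near the background share. H2BC3 was no longer lost in hDE with windows of 500 bp or 2.5 kb, with peaks of −log10 p of at least 5, or with the summit required inside the window, and its gain in hAFE ended with windows of 2.5 kb. For H3K27me3, 0 of 55 members were gained at any step, against 0.868, 2.74 and 1.78% from hDE to hPFE, and with no marked member none could be lost (backgrounds of 22.2%, 15.3% and 16.1% in the same order).

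The members' peaks ranked above the middle of most lists of the active marks. Genes with a peak in a list were ranked by the fold enrichment of their strongest peak, and the rank is given as a percentile, so that 50 is the middle. For H3K27ac the median member stood at 92.9 and 88.5 in the hESC libraries, at 64.6 and 55.1 in those of hDE, at 86.7 and 90.0 in those of hAFE and at 77.8 and 64.1 in those of hPFE, above the middle in all 8 libraries. For H3K4me2 it stood at 56.8 and 38.9 in hESC, 62.1 and 61.4 in hDE, 55.2 in hAFE and 68.8 in hPFE, above the middle in 5 of 6 libraries. The medians of the marks lay apart in hESC and hAFE, and overlapped in hDE and hPFE. The median fold enrichment in hESC H3K27ac replicate 1 was 8.59 over the 51 members with a peak and 4.96 over all genes with one, and in hDE replicate 2 it was 8.2 and 7.59. The lists differ in length and in the genes they hold, so these ranks describe each list and show no change between stages.

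**Figure D3:**
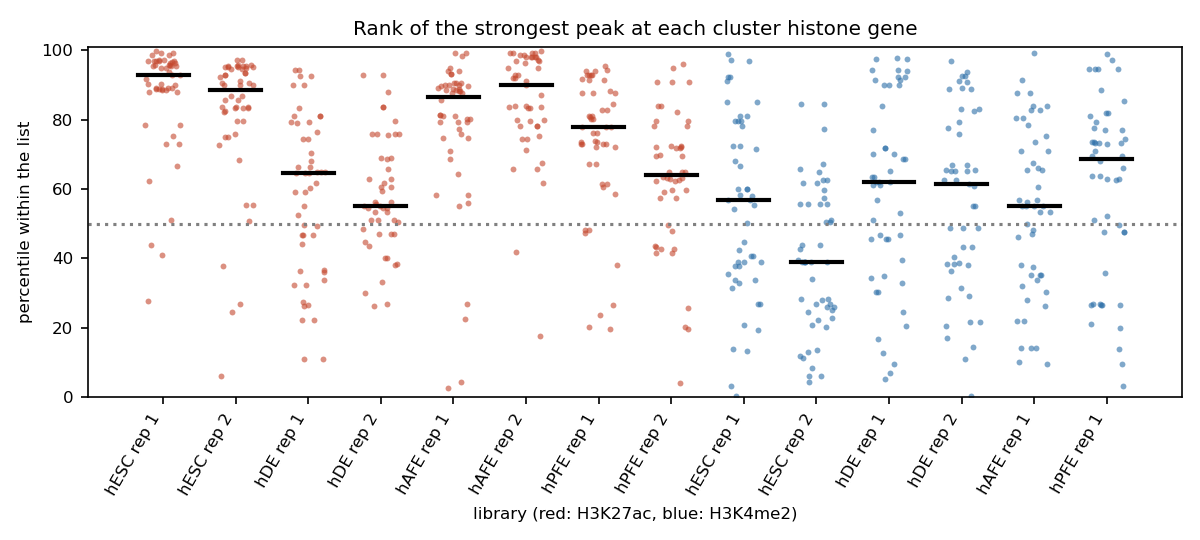
Each point is a member with a peak, placed by the percentile of its strongest peak among all genes with a peak in that list (vertical axis), and bars are medians, by library (H3K27ac red, H3K4me2 blue). The H3K27ac medians run from 55.1 to 92.9 and the H3K4me2 medians from 38.9 to 68.8, with the dotted line at 50.

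H3C6, an H3 gene (chr6:26224178-26227473), had the highest median percentile for H3K27ac, 95.8. Its fold enrichment was 13.6 and 8.72 in hESC, 10.4 and 13.4 in hDE, 14.4 and 12.7 in hAFE, and 12.5 and 21.7 in hPFE. The next were H3C1 and H4C1, an H3 and an H4 gene that share their strongest peak in all 8 libraries, both at 94.2. That peak had a fold enrichment of 9.79 and 8.77 in hESC, 9.77 and 10.8 in hDE, 15.8 and 9.79 in hAFE, and 11.4 and 9.36 in hPFE, and it kept a width of 920 to 1030 bp. Over the 47 fully marked members the median fold enrichment across H3K27ac libraries was 5.9 or more, with H3C6 highest, and across H3K4me2 libraries it ran from 4.91 to 8.1. For H3K4me2 the highest were H2AC16, an H2A gene, and H1-5, a linker histone gene, at 83.2 each, and H3C2, an H3 gene, at 78.5. H2AC16 and H1-5 had the same strongest H3K4me2 peak in 5 of 6 libraries, with a fold enrichment of 10.5 in hESC replicate 2, 8.64 and 6.89 in hDE, 7.54 in hAFE and 7.81 in hPFE, while in hESC replicate 1 they had 5.02 and 7.59 from separate peaks. By family, the median of the members' own median percentiles for H3K27ac was 80.7 for H3, 77.0 for H2B, 76.4 for H2A, 69.6 for H4 and 69.6 for H1. Within each family the range was wider than the gap between families, for example 20.1 to 95.8 for H3.

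Peaks lay close around most start sites and left the start itself open. Over the 50 members with a RefSeq start, an H3K27ac peak covered the base 500 bp downstream in 82 to 92% of members per library, the base 500 bp upstream in 64 to 78%, and the start itself in 6 to 34%. Over 15843 genes with a listed start the same positions were covered in 14.1 to 37.8%, 13.8 to 30.7% and 4.17 to 20.3%. For H3K4me2 the members' values were 70 to 88%, 48 to 62% and 2 to 22%, against 37.3 to 55.2%, 32.8 to 50.8% and 9.12 to 18.5% of all genes. Of 700 pairs of a member and an active-mark library, 578 had a peak on both sides of the start. In 449 of these (77.7%) no peak covered the start. The same count was not made over all genes, whose coverage also dips near the start, so it shows no difference from them. The pairs are not independent, because each member recurs in every library and head-to-head neighbours can share flanking peaks. H3K27me3 covered neither the start nor the base 500 bp to either side of it in any member.

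**Figure D4:**
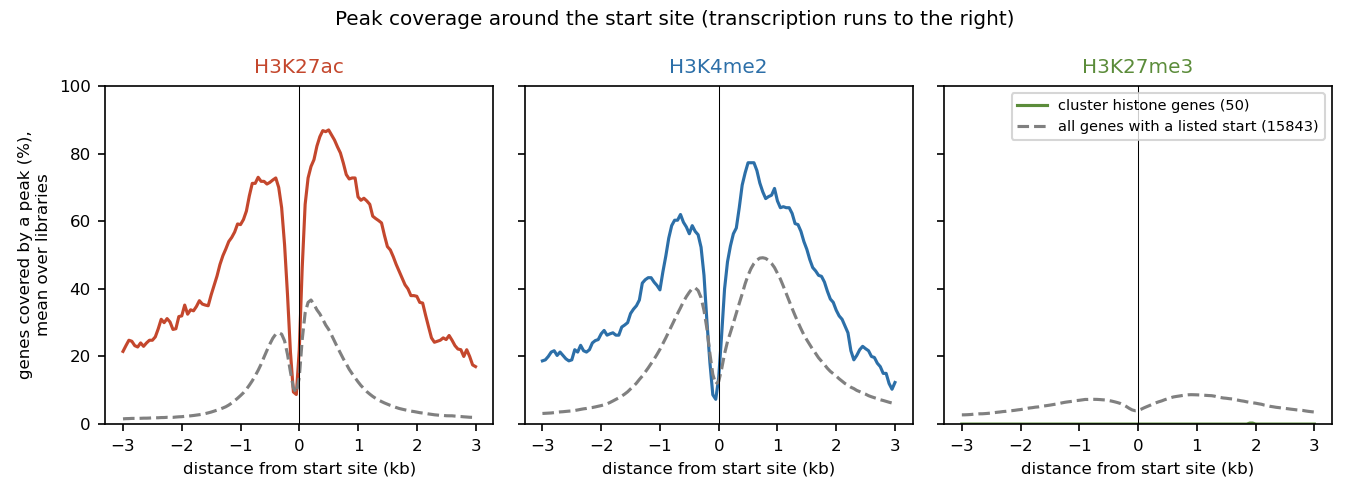
Lines give the share of genes (%, mean over the libraries of a mark) with a peak over each position from 3 kb before to 3 kb after the start. The 50 members (coloured) lie above the 15843 genes (grey, dashed) on both flanks for H3K27ac and H3K4me2, both dip near the start, and the members lie at or near 0 for H3K27me3.

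Across the window of 2.3 Mb, intervals of the active marks took a larger share of their bases from the members' windows than those windows take of the sequence, and H3K27me3 intervals a smaller one. The members with 1 kb on either side of each end make up 143 kb, or 6.21% of it. The 8 H3K27ac lists held 147 to 285 peaks there over 88.3 to 152 kb, and 48.1 to 73.6% of the covered bases lay in the members' windows. The 6 H3K4me2 lists held 252 to 399 peaks over 144 to 240 kb, with 29.9 to 41.0% in them. The 7 H3K27me3 lists held 24 to 96 peaks over 15.4 to 49.1 kb, with 0 to 0.517% in them.

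**Figure D5:**
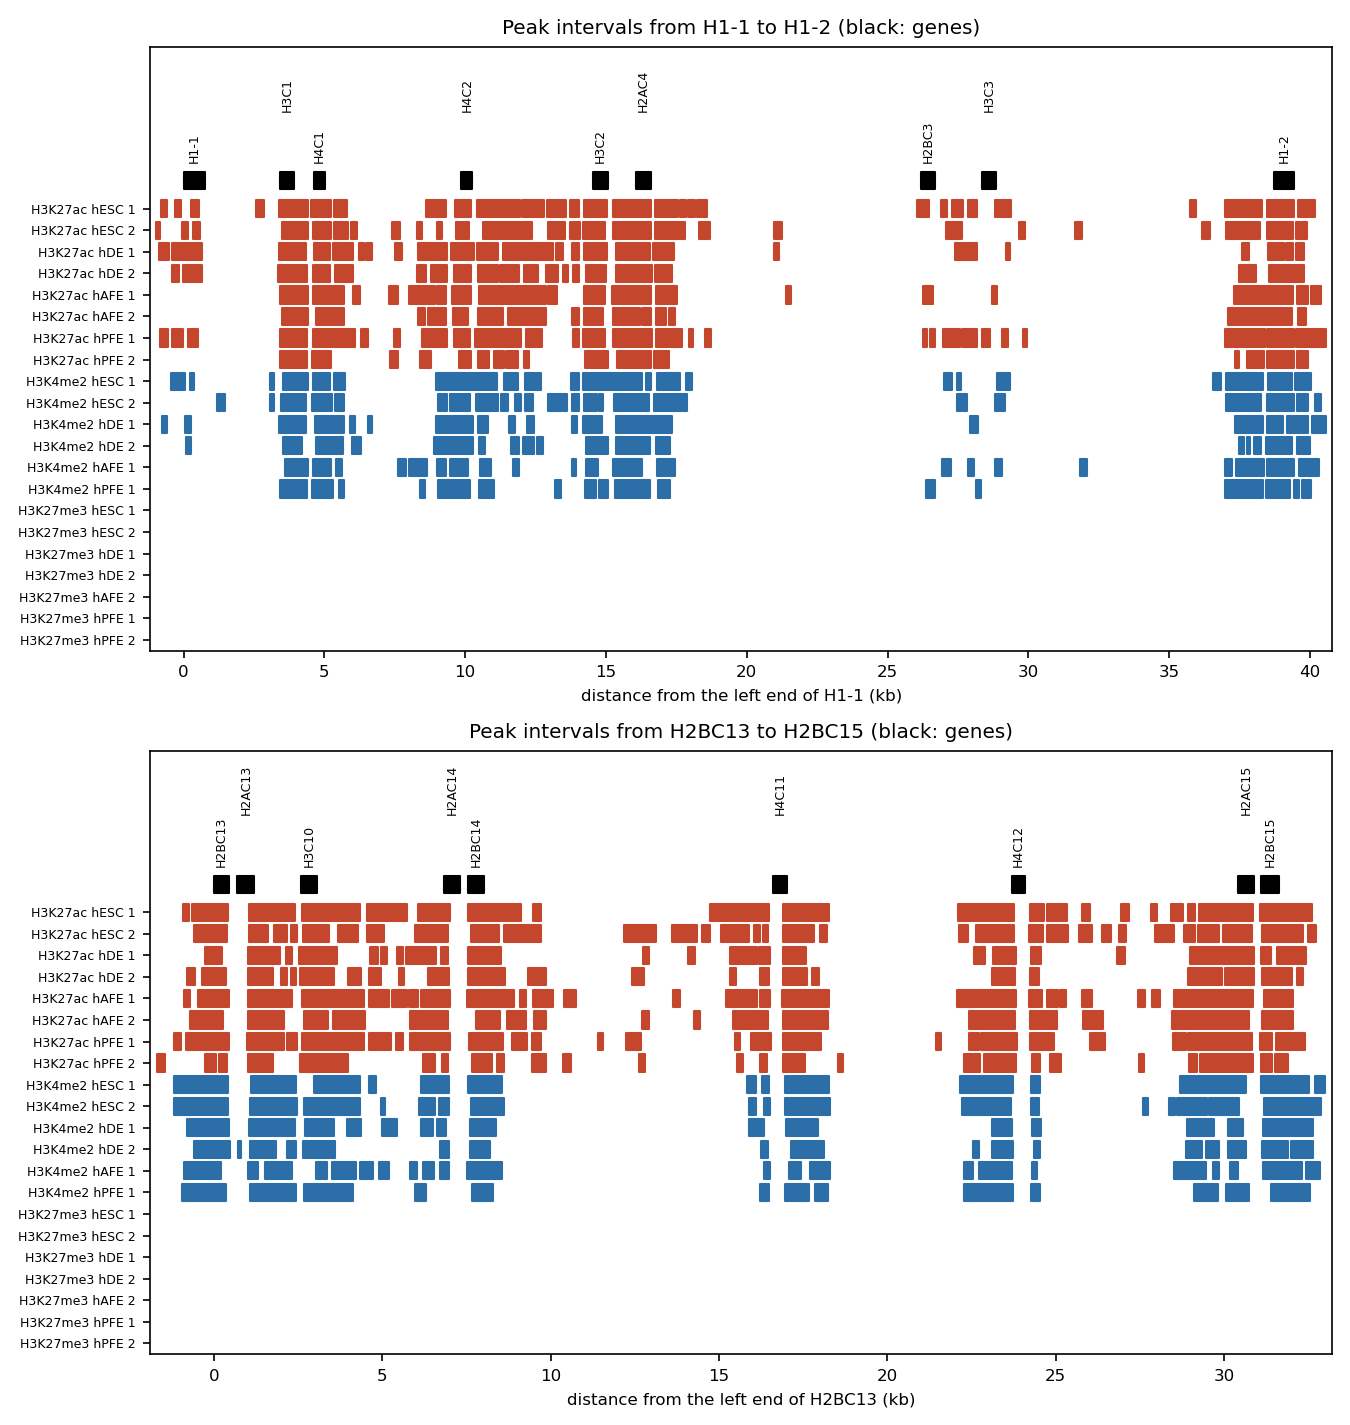
Bars are peak intervals of each library (rows, red H3K27ac, blue H3K4me2) along 2 stretches of the cluster, in kb from the left end of the first gene, with genes in black. Above, the members from H3C1 to H2AC4 have a peak at a gene end in all 14 libraries while H1-1, H2BC3 and H3C3 do not, and below, no peak covers the midpoint between the paired starts of H2BC13 and H2AC13, of H2AC14 and H2BC14 or of H2AC15 and H2BC15. No H3K27me3 interval falls in either stretch.

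Many members shared a peak with a neighbour, meaning that the peak came within 1 kb of an end of each. A shared peak need not overlap both genes. Of the peaks at members in a library, 91 to 110 for H3K27ac and 78 to 102 for H3K4me2, 30 to 38 and 29 to 35 reached more than 1 member. They lay within reach of 36 to 38 members in each H3K27ac library and 35 to 38 in each H3K4me2 library. No peak reached more than 3 members. Of 24 pairs that shared a peak in any library, 20 did so in all 14, and those 20 pairs hold 35 members. The calls of these members are not independent of each other. The other 4 pairs were H2BC12 with H4C9 and H2BC13 with H3C10 (13 libraries each), and H2BC3 with H3C3 and H3C12 with H2BC17 (6 each).

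The widest peak that reached 3 members was 3656 bp long (chr6:26195675-26199330, hPFE H3K27ac replicate 1). It came within 1 kb of an end of H3C4, an H3 gene, and of H2AC7 and H2BC7, a head-to-head pair. Its right end lay left of the start of H2BC7 (chr6:26199516), which it did not overlap. The annotation of H3C4 (chr6:26196784-26199293) contains that of H2AC7, and the annotation of H2BC12 contains that of H4C9, so a peak over the stretch that both annotations cover cannot be assigned to 1 gene of the pair.

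Among members with a listed start, 10 adjacent pairs were head to head, 9 of them H2A with H2B, with starts 194 to 979 bp apart (median 242 bp). In 9 of the 10 some peak lay within reach of both genes in all 14 libraries, and the exception, H2AC1 with H2BC1, had none. The windows of such close genes overlap, so a peak beside either gene is often within reach of both. This count therefore does not show a peak that spans the pair. The midpoint between the starts was covered in 0 of 8 H3K27ac libraries and 0 of 6 H3K4me2 libraries for every H2A and H2B pair. H3C7 with H2BC9, the pair whose starts are 979 bp apart, had it covered in 8 of 8 and 5 of 6.

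Outside the cluster, the 10 replacement histone genes, which encode histones made throughout the cell cycle, were marked by H3K27ac in 6, 9, 7 and 9 cases from hESC to hPFE, and by H3K4me2 in 9 at each stage.

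Of 12 regulators of histone gene expression, H3K4me2 marked 12 at each stage and H3K27ac marked 8, 11, 7 and 10. NPAT, the coactivator of histone genes driven by cyclin E and CDK2, CASP8AP2 (FLASH), which acts in transcript processing, LSM10, a subunit of the U7 particle that cuts histone transcripts, and POU2F1, which binds the octamer, had H3K27ac in all 8 libraries. SLBP, the protein that binds the stem-loop, and HINFP, a factor of H4 promoters, had it in 7. LSM11, the partner of LSM10 in the U7 particle, had it in 2. H3K27me3 marked 2 of the 12 in hESC (LSM11 and CCNE2), against 19.2% of all genes, and 1 in hDE (LSM11), against 13.4%. It marked 0 in hAFE and hPFE, against 15.5 and 12.7%, and was mixed at ZNF473 in hESC and at CCNE1 in hPFE.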

How the data were processed

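Peaks were called by the authors for each library, with the same stage's input as control and duplicates removed, at a p threshold of 0.01 and with a cap of 500 K peaks, as the names of the deposited files state. Per the submitters' processing notes the build was hg38. The sources used here name no aligner or peak caller. Every deposited peak comes with a whole-number score, its fold enrichment (ratio over input), −log10 p and −log10 q, which are the authors' values and were used only within 1 list. The deposited summit offset served 1 alternative.

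Peaks that overlap in 1 library were merged for coverage. Gene ends came from a RefSeq table (GRCh38.p14, 59679 genes), and starts and strands from its promoter table. Members marked in every library of a stage were counted beside all protein-coding genes, with no test. Named members were the 3 highest and 3 lowest by median percentile, those whose calls vary or changed, the germline members and the widest shared peaks. Members and lists were chosen with earlier results of these data known. Alternatives were windows of 500 bp and 2.5 kb, a −log10 p of at least 5, an overlap of 200 bp, the summit inside the window, lists cut to equal length, and each replicate left out. The overlap step was tested on simulated data. Results for some genes outside the cluster are not reported here. Python 3.11.15, pandas 2.3.3, numpy 2.4.6 and matplotlib 3.10.9 were used.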

Additional observations from a re-analysis of the deposited data

How the results depend on the processing

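Of 295 recomputed values over 39 results, 264 kept their call or stayed within 1.5 times their count. The number of members marked by H3K27ac ranged over the alternatives other than left-out replicates from 50 to 52 in hESC, 44 to 50 in hDE, 47 to 48 in hAFE and 47 to 49 in hPFE. For H3K4me2 it ranged from 49 to 52, 48 to 50, 48 to 51 and 48 to 51, and for H3K27me3 it was 0 at every stage. No share of all genes is given for the alternatives, so they show only how the member counts moved. The mean over libraries of the members' median percentile was 77.5 for H3K27ac and 57.2 for H3K4me2.

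The counts that moved lay between 0 and 3 members and were changes between stages, except for H3K27me3 marked in hPFE with a replicate left out. The cause was not tested. With windows of 500 bp, H3K27ac was lost by 1 member in hDE relative to hESC and H3K4me2 by 0. With windows of 2.5 kb, H3K27ac was gained by 1 in hPFE relative to hAFE, H3K4me2 was lost by 0 in hDE relative to hESC and gained by 0 in hAFE relative to hDE. A −log10 p of at least 5, or the summit inside the window, left 0 losses of H3K4me2 in hDE. An overlap of 200 bp gave 0 losses of H3K4me2 in hAFE and 1 in hPFE. With lists of equal length, H3K27ac was lost by 3 members in hDE, gained by 1 and lost by 0 in hAFE, and H3K4me2 was lost by 0 in hAFE. The H1-1 change in H3K4me2 ended with an overlap of 200 bp, a −log10 p of at least 5 and equal lengths, and the H2BC3 gain in hAFE with windows of 2.5 kb.

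With 1 replicate left out, H3K27ac losses ranged from 0 to 2 in hDE (2 without hDE replicate 1, 1 without hESC replicate 1) and from 1 to 2 in hAFE (2 without hAFE replicate 1), and H3K27ac gains in hPFE from 0 to 1 (1 without hAFE replicate 1 or hPFE replicate 2). H3K4me2 losses in hDE and gains in hAFE each ranged from 1 to 2 (2 without hDE replicate 1). H3K27me3 members marked and gained in hPFE each ranged from 0 to 1 (1, H2BC5, without hPFE replicate 1). A stage left with 1 library is called by that library alone. No paired analysis was possible because the results come from no test.

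Several limits bear on all counts. Members share peaks, and near-identical copies can split or lose reads, and the sources used here give no alignment settings. The word millipore in the names of replicate 1 of H3K27me3 (hESC, hDE, hPFE) is not explained, and whether those replicates differ in antibody was not tested. For most members, of which the median spans 489 bp, the windows at both ends overlap, unlike those of long genes. The annotations of H2BC5, H2BC4, H2BC12, H3C6 and H3C4 run over 13229, 10757, 8566, 3296 and 2510 bp, so their windows lie apart.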

Other observations

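The window also holds 100 annotated tRNA genes, transcribed by another RNA polymerase, of which 99 lie over 3 kb from any member. From hESC to hPFE, H3K27ac marked 13, 43, 20 and 27 of them, against 42.9, 54.0, 34.2 and 50.2% of all protein-coding genes. H3K4me2 marked 79, 71, 69 and 64, against 72.3, 68.0, 70.2 and 70.1%, so its share was near that of all protein-coding genes. H3K27ac was present in all 8 libraries at 11 of them and in none at 42, whereas H3K4me2 was present in all 6 libraries at 62 and in none at 17. Those 17, apart from TRT-AGT4-1, lie in a single stretch from TRA-AGC14-1 (chr6:26673362) to TRA-AGC14-2 (chr6:26828227). They had no H3K27ac or H3K27me3 peak either. Whether reads can be placed in this stretch was not tested. H3K27me3 marked 9, 0, 5 and 7 of the tRNA genes from hESC to hPFE, and 0 members at each stage. The shares of all protein-coding genes were 19.2, 13.4, 15.5 and 12.7%.

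The window holds 11 histone pseudogenes. Of the 7 within 3 kb of a member, H3K27ac was present in 8 of 8 libraries at 5 (H1-12P, H2AC9P, H2AC10P, H4C10P and H2BC16P), in 7 at H3C5P and in 5 at H2AC5P. Of the 4 that lie over 3 kb from a member, H2BC2P, H2AC2P and H2AC3P had it in 0 libraries, and H3C9P, 36342 bp away, in 1, although H3C9P had H3K4me2 in 6 of 6.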
